A study of Rattus norvegicus with 22 samples.

Results

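Voluntary EtOH drinking was compared with water only in the nucleus accumbens (NAc) of adult rats. Membership was set by the sample labels: the 10 libraries of experiment 1, of 22 in the series, with 5 from EtOH-drinking rats and 5 from water-drinking rats. All rats were adult male Wistar rats, an outbred strain, and were housed singly. For 8 weeks the EtOH rats could choose at any time between water and 6% (v/v) EtOH, and the control rats had water only. The NAc core and shell were dissected together from both sides right after the EtOH bottles were removed, and polyA+ RNA was sequenced without keeping the strand. The comparison was read by gene families and cell-type programmes: 62 lists (18 of cell-type markers and 44 of gene families) holding 1654 genes, of which 1043 were among the 8655 genes tested of 17310 listed. The amount that each rat drank was not linked to its library in the labels and was not used here.

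The NAc is the ventral part of the striatum. Most of its neurons are GABAergic projection neurons, which carry either D1 or D2 dopamine receptors, and a small number of cholinergic and GABAergic interneurons regulate them. The region lies next to the lateral ventricle, whose wall is lined by ciliated ependymal cells and holds dividing progenitors that produce migrating neuroblasts. EtOH acts on many ion channels and neurotransmitter receptors and raises dopamine in the NAc, and repeated intake is thought to alter its projection neurons.

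Each library held 2962291 to 5247386 reads on genes. Normalized counts are read counts scaled to the mean library size. The tissue showed the defining genes of the striatum in every rat. Ppp1r1b, the dopamine-regulated phosphatase inhibitor DARPP-32, had 2678 to 5646 normalized counts, and Drd2 had 456.4 to 919.3. Th and Slc6a3, which mark dopamine neuron cell bodies, had at most 8.21 and 2.66 normalized counts. Some rats stood apart by markers of tissue around the NAc. EtOH rat 3 had 703.1 CPM (counts scaled to a fixed library total) over the fibroblast and meninges list against 226.7 to 287.7 in the other EtOH rats, and 1508 CPM over the cortical glutamatergic list against 935.4 to 987.6. Water rat 5 had 360.3 and 1556 CPM over these lists, against at most 236.3 and 1012 in the other water rats. EtOH rat 2 had the highest D2-type sum, 1930 CPM against 941.9 to 1198 in the other EtOH rats. Of the fibroblast markers, Col1a2 and Ogn had 0 counted reads in all rats, although Col1a1 had 35.2 to 167.5 normalized counts. Whether the 0 counts show a lack of expression was not tested. All 12 choroid plexus markers lay below the filter, and their summed level was 15.0 to 28.7 CPM in water rats and 13.4 to 29.2 CPM in EtOH rats.

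No gene passed a false discovery rate (FDR) of 0.05 with edgeR (quasi-likelihood test, Benjamini-Hochberg, 0% of genes tested), and the lowest FDR was 0.536. DESeq2 also called 0 genes. At an unadjusted P under 0.05, 483 genes (5.58%) were found, 260 higher in EtOH rats (3.0%) and 223 lower (2.58%). In 73 genes (0.843%) the normalized counts of the groups did not overlap. This is near the share of 0.00794 of all splits of 5 against 5 rats that separate a gene fully. The median log2 fold change (EtOH minus water) over all genes tested was -0.001, with quartiles at -0.072 and 0.075, and 49.5% of genes had a positive value. Every gene and list below is therefore described by its values and by unadjusted P, and none was shown to change at the FDR threshold. List counts are to be read against these shares of all genes.

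Markers of D1-type projection neurons had lower levels in EtOH rats. All 6 tested D1-type markers had negative log2 fold changes, with a median of -0.48, and 3 of them (50%) had P under 0.05, all lower. These were Drd1, the D1 dopamine receptor, Chrm4, the M4 muscarinic receptor that opposes D1 signalling, and Slc35d3, a transporter needed for surface D1 receptor. Of the other listed genes, Ebf1 fell below the filter. Isl1 passed it only through its water level, so its sign adds no separate support. In tissue RNA, fewer cells of a type and less RNA per cell cannot be told apart.

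Drd1 had normalized counts of 1815, 1334, 1324, 1757 and 965.7 in water rats 1 to 5. In EtOH rats 1 to 5 it had 1031, 1437, 803.0, 965.8 and 837.9. Water rat 5 was low and EtOH rat 2 was high for their groups, and the groups overlapped. The log2 fold change was -0.50 (SE 0.17), with P = 0.0104 in edgeR and P = 0.0794 in the two-sided exact permutation test.

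Chrm4 ran from 290.8 to 518.4 in water rats and from 262.3 to 331.6 in EtOH rats. Only water rat 5 lay within the EtOH range. Its log2 fold change was -0.54 (SE 0.13), with an exact permutation P of 0.0238. Slc35d3 had counts of 289.2, 249.7, 199.9, 283.5 and 159.8 in water rats and 182.0, 251.1, 117.0, 132.4 and 147.2 in EtOH rats. EtOH rat 2 again lay among the water rats, and the log2 fold change was -0.50 (SE 0.20).

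The remaining D1-type markers had smaller or less certain differences. Isl1, listed here as a transcription factor of striatonigral neurons, had a log2 fold change of -0.47 (SE 0.27). Its means were 55.6 in water rats and 40.1 in EtOH rats, the latter below the filter. In water rats 1 to 5 it had 75.6, 64.7, 67.1, 43.3 and 27.4 normalized counts. This was the rank order of Slc5a7 in the cholinergic list (724.3, 653.6, 665.2, 342.5 and 219.0), whereas Drd1 was high in water rat 4. Which cells the Isl1 RNA came from was not tested. The D1-type list median lay between Isl1 and Slc35d3. Tac1, the precursor of substance P, had -0.27 (SE 0.17). Pdyn, the dynorphin precursor and the most abundant marker of the list, had -0.14 (SE 0.14), with 1148 to 1721 normalized counts in water rats and 984.6 to 1645 in EtOH rats. The D1-type median lay between -0.62 without water rat 5 and -0.36 without EtOH rat 3, with 5 and 2 members at P under 0.05.

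D2-type markers had a median log2 fold change of -0.053 over 7 tested genes, and 1 of them (14.3%) had P under 0.05. Drd2 itself had means of 618.7 (SD 91.7) and 617.7 (SD 179.0) in water and EtOH rats and a log2 fold change of 0.003 (SE 0.16). Adora2a, the adenosine receptor of D2-type neurons, had -0.18 (SE 0.19). Penk, the enkephalin precursor, had -0.25 (SE 0.21) and stood at 4024 in EtOH rat 2 against 1717 to 2249 in the other EtOH rats. Plxdc1 had the lowest P of this list, with a log2 fold change of -0.39 (SE 0.17). With means of 53.55 in water rats and 41.1 in EtOH rats, Plxdc1 passed the filter only through its water level. Without EtOH rat 2 the D2-type median was -0.25 and 2 members had P under 0.05, and without EtOH rat 3 there were 0 in edgeR. The difference between D1-type and D2-type markers was not tested.

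Genes that both projection neuron types share were mostly lower by a small amount. Of 19 tested members, 17 had negative values, the median was -0.14 and 0 had P under 0.05 in edgeR. Without EtOH rat 2, 10 members had P under 0.05 and the median was -0.24. Rgs9, a regulator of dopamine receptor signalling, had the lowest P of these, with a log2 fold change of -0.35 (SE 0.17). Ppp1r1b had -0.24 (SE 0.17). Arpp21, a striatal phosphoprotein with the highest counts of the list, had -0.034 (SE 0.13), with 6961 in EtOH rat 2 against 3962 to 4473 in the other EtOH rats. Gad1, which makes GABA, had -0.046 (SE 0.087). Opioid peptides and receptors had 3 tested genes and 0 at P under 0.05 in edgeR. Oprm1, Oprd1 and Oprk1 fell below the filter.

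**Figure D1:**
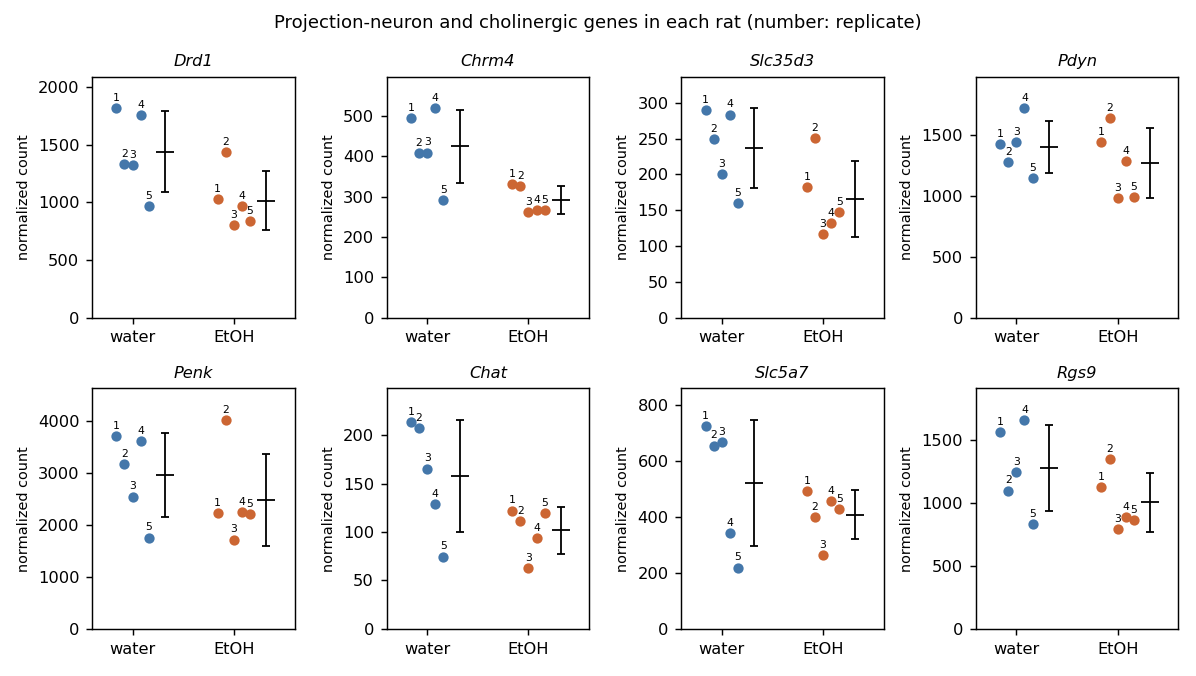
Normalized counts of projection-neuron and cholinergic genes in each rat. Points are rats, labelled by replicate number, with water rats on the left and EtOH rats on the right of each panel. Black bars are the mean and SD of 5 rats. Water rat 5 lay low in its group for Drd1, Chrm4 and Chat, and EtOH rat 2 lay high in its group for Drd1, Slc35d3 and Penk.

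Cholinergic interneuron genes were lower in the EtOH group, with a large spread between rats. Of 8 tested members, 7 had negative values, the median was -0.35, and 3 (37.5%) had P under 0.05, all lower. Among them, Chat makes acetylcholine and Lhx8 specifies these cells. Lhx8 had means of 63.2 in water rats and 38.15 in EtOH rats, so it passed the filter only through its water level. For Lhx8, P was 0.0492 in edgeR and 0.198 in the exact permutation test. Chat had 213.7, 207.6, 165.6, 128.6 and 74.7 normalized counts in water rats and 122.2, 111.0, 62.9, 93.4 and 119.5 in EtOH rats. Water rats 1 to 4 lay above every EtOH rat and water rat 5 lay below all but EtOH rat 3. The log2 fold change was -0.63 (SE 0.25) with an exact permutation P of 0.119. Slc5a7, the choline transporter and the most abundant member, had -0.36 (SE 0.26) and ran from 219.0 to 724.3 in water rats. The count of members at P under 0.05 was 0 without water rat 2 and 8 without water rat 5, so single rats decided it.

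GABAergic interneuron genes differed in both directions. Of 10 tested members, 5 (50%) had P under 0.05, and the median was -0.051. The 4 lower genes were Lhx6, a transcription factor of interneurons from the medial ganglionic eminence, Nos1 and Pvalb, which mark separate interneuron types, and Elfn1, a synaptic protein. Lhx6 had a log2 fold change of -0.41 (SE 0.15), Nos1 -0.30 (SE 0.12), Elfn1 -0.34 (SE 0.14) and Pvalb -0.57 (SE 0.24). Pvalb counts ran from 59.1 to 136.8 in water rats and from 42.1 to 82.0 in EtOH rats. Reln, the extracellular signal reelin, was higher, with 0.54 (SE 0.20), and stood at 860.3 in EtOH rat 2 against 338.7 to 557.5 in the other EtOH rats. Sst, somatostatin, the most abundant member, had -0.094 (SE 0.079). Npy had 0 counted reads in all rats, and whether it was not expressed or its reads were not counted was not tested. The count at P under 0.05 was 2 without EtOH rat 4 and also without water rat 2, and the exact permutation P of the 5 genes lay between 0.0556 and 0.0873.

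Most genes of migrating neuroblasts had higher levels in EtOH rats. Of 10 tested members 7 had positive values and 3 negative, 6 (60%) had P under 0.05, all higher, and the median log2 fold change was 0.36. Another 5 listed genes fell below the filter. Dcx, Dlx1 and Cd24 are among the lowest-P genes that the paper reports from these same libraries. The list was drawn up with earlier results known, so its share of 60% is no independent support. The members at P under 0.05 were Dcx, a microtubule protein of migrating neurons, Dlx1 and Sox4, transcription factors of newborn neurons, Cd24, a surface protein of neuroblasts, Ccnd2, a cyclin of neural progenitors, and Tubb2b, a tubulin of young neurons.

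Dcx had 581.0, 543.6, 582.0, 483.0 and 603.8 normalized counts in water rats and 664.4, 624.2, 833.1, 844.6 and 685.1 in EtOH rats. Every EtOH rat lay above every water rat. Its log2 fold change was 0.39 (SE 0.092), and the exact permutation P of 0.00794 is the smallest that 5 against 5 rats allow. Cd24 also separated the groups, with 105.5 to 167.2 in water rats and 167.7 to 249.4 in EtOH rats, but by less than 1 count between the nearest rats. Dlx1 ran from 95.1 to 222.7 in water rats and from 184.6 to 349.2 in EtOH rats, with the lowest value in water rat 1 and the highest in EtOH rat 3.

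Sox4 had a log2 fold change of 0.34 (SE 0.13), Ccnd2 0.42 (SE 0.16) and Tubb2b 0.19 (SE 0.086), and each overlapped between groups. Tubb3, a tubulin of all neurons and the most abundant member, had -0.005 (SE 0.068). The other negative members were Stmn1, a microtubule-destabilising protein, with -0.007 (SE 0.075), and Dlx5, a transcription factor of the same family as Dlx1, with -0.21 (SE 0.19). Over the whole list the summed level was 885.5 to 1090 CPM in water rats and 1023 to 1255 CPM in EtOH rats. The median stayed between 0.24 without EtOH rat 3 and 0.40 without water rat 5. EtOH rat 3 lowered the count of members at P under 0.05 to 3 when left out.

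Genes of ependymal cells, the ciliated lining of the ventricle, were also higher in EtOH rats and varied widely between rats. All 4 tested members had P under 0.05 and were higher, with a median of 0.64, whereas 7 listed genes were below the filter. Foxj1, the master transcription factor of motile cilia, had 18.2, 66.8, 37.2, 32.8 and 72.5 normalized counts in water rats. In EtOH rats it had 46.8, 72.0, 76.2, 88.3 and 84.1. Water rats 2 and 5 lay within the EtOH range, and the log2 fold change was 0.65 (SE 0.28) with an exact permutation P of 0.0635.

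Ak7, a ciliary adenylate kinase, ran from 5.21 in water rat 1 to 86.6 in water rat 5, and from 40.3 in EtOH rat 1 to 139.0 in EtOH rat 2. Its log2 fold change was 1.23 (SE 0.46), and its mean in water rats was 43.1, below the filter. Enkur and Spag6, proteins of the ciliary or sperm axoneme, had 0.63 (SE 0.25) and 0.46 (SE 0.20). The summed ependymal level differed 4.08-fold between the highest and the lowest rat. The median was 0.49 without water rat 1 and 0.85 without water rat 5, and 1 member had P under 0.05 without EtOH rat 4.

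Of the proliferation genes 6 of 19 passed the filter, all 6 with positive log2 fold changes (median 0.13). Top2a, the topoisomerase of dividing cells, had 7.82, 41.1, 10.9, 22.3 and 40.7 normalized counts in water rats and 42.9, 91.0, 89.5, 67.7 and 45.4 in EtOH rats. The groups did not overlap, although EtOH rat 1 lay within 3 counts of water rats 2 and 5. The log2 fold change was 1.43 (SE 0.36). The base mean of Top2a, 44.7, lay just above the filter, with means of 24.6 in water rats and 67.3 in EtOH rats. Top2a was thus tested only through its EtOH level, and its sign adds no separate support. Mki67, another marker of dividing cells, had 0.58 (SE 0.30) and ran from 18.2 to 99.8 in water rats and from 63.7 to 119.0 in EtOH rats. Pcna, the most abundant of the list and also used in DNA repair, had 0.073 (SE 0.081). In the mean deviation over each of the neuroblast, ependymal and proliferation lists, water rat 1 was lowest or next to lowest, and EtOH rats 2 to 5 lay above every water rat. In the neuroblast list the nearest were EtOH rat 5 at 0.020 and water rat 5 at 0.016. The proliferation and ependymal deviations include Top2a and Ak7, whose means in water rats lay below the filter. This order of rats is thus no separate support. The part that the dissected distance to the ventricle plays in these values was not tested.

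**Figure D2:**
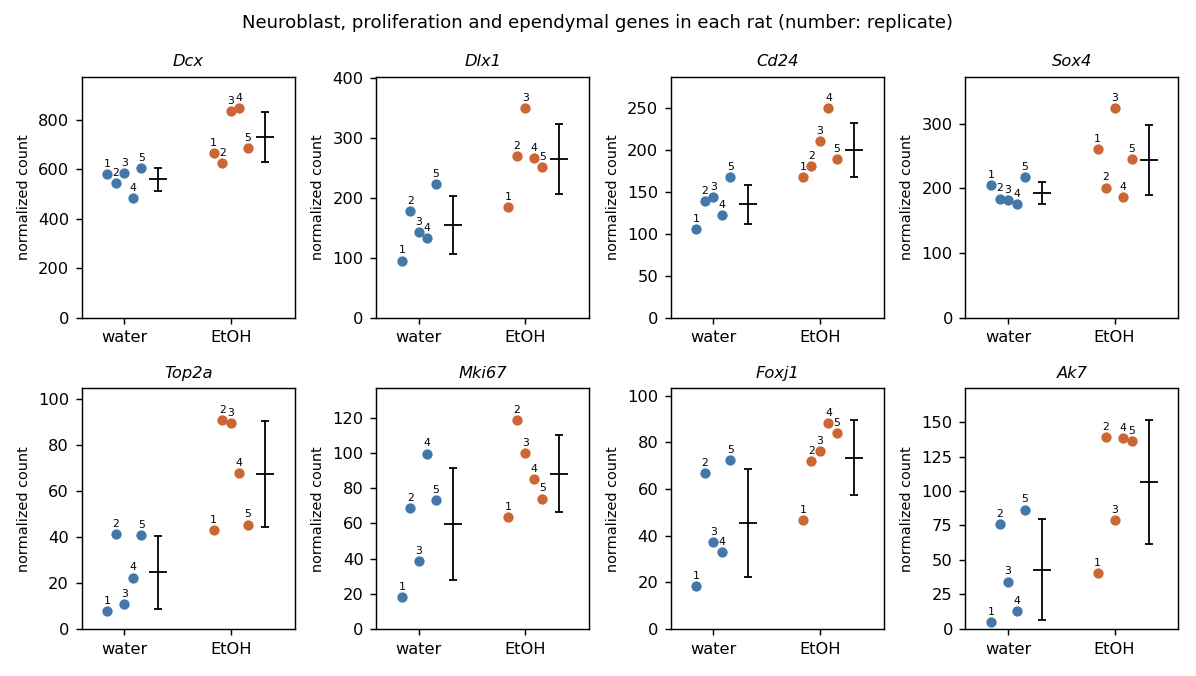
Normalized counts of neuroblast (Dcx, Dlx1, Cd24, Sox4), proliferation (Top2a, Mki67) and ependymal (Foxj1, Ak7) genes in each rat. Points are rats, labelled by replicate number, and black bars are the mean and SD of 5 rats. EtOH rats lay above all water rats for Dcx, Cd24 and Top2a, and water rat 1 had the lowest value for 6 of the 8 genes.

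**Figure D3:**
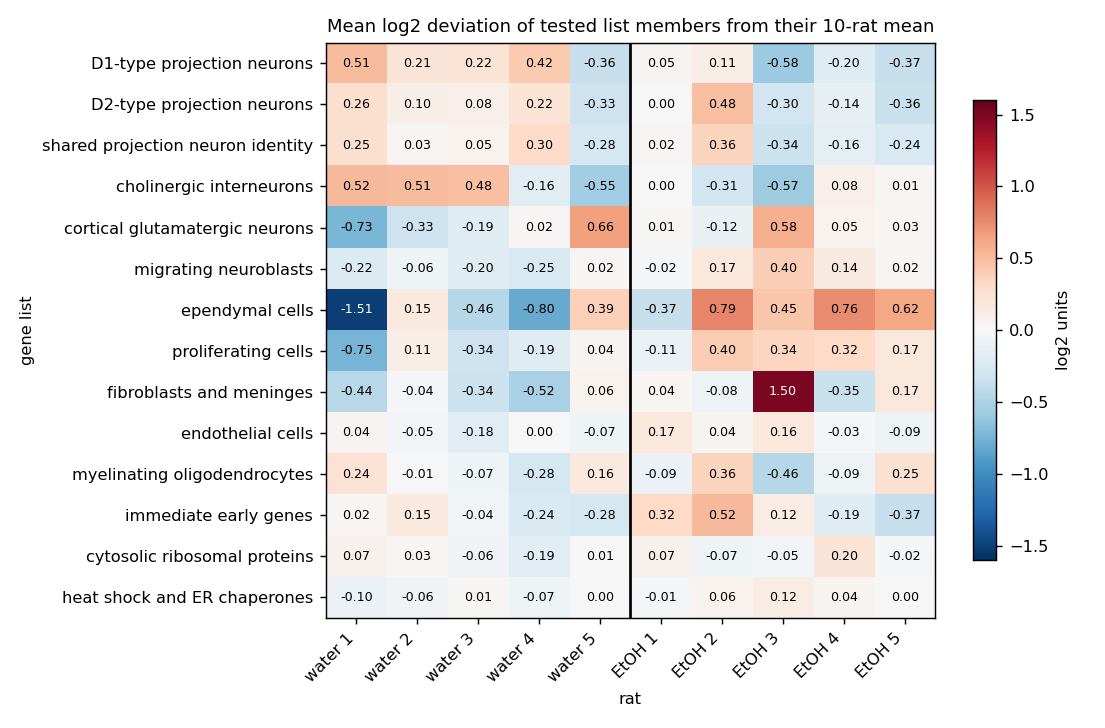
Mean log2 deviation of the tested members of 14 lists in each rat from their mean over 10 rats. Red is higher and blue is lower, and the line separates water from EtOH rats. Fibroblast and meninges genes were highest in EtOH rat 3 (1.5), ependymal genes were lowest in water rat 1 (-1.51), and D1-type genes were lowest in EtOH rat 3 (-0.58).

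Glial programmes showed little difference. Myelinating oligodendrocyte genes had a median of -0.004 over 18 genes with 0 at P under 0.05 in edgeR, astrocyte genes 0.005 over 18 genes and microglial genes -0.016 over 13 genes. Mbp, the main myelin protein, ran from 14770 to 19770 in water rats and from 10090 to 21700 in EtOH rats. Glul, the astrocytic glutamine synthetase, had a log2 fold change of 0.012 (SE 0.080), and Ctss, a microglial protease, had -0.012 (SE 0.069). Among astrocyte genes, 2 of 18 (11.1%) had P under 0.05, with 1 without EtOH rat 1 and 3 without EtOH rat 2. Gjb6, the gap junction protein connexin 30, was one, with 0.48 (SE 0.16).

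Oligodendrocyte precursor genes had a median of 0.068 over 11 genes. Pdgfra, the receptor that drives these cells, and Sox6, which keeps them immature, had P under 0.05. Pdgfra had 581.0 to 605.4 in water rats and 665.7 to 791.4 in EtOH rats, and Sox6 had 40.7 to 61.3 and 65.7 to 93.0. Neither gene overlapped between groups. Pdgfra is also among the lowest-P genes that the paper reports from these libraries. Ptprz1, the most abundant member, had -0.074 (SE 0.073).

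Vascular genes were slightly higher. Of 11 endothelial genes 10 had positive values with a median of 0.089, and 2 (18.2%) had P under 0.05. Flt1, a VEGF receptor, had 350.1 to 396.7 in water rats and 394.1 to 448.4 in EtOH rats, with a log2 fold change of 0.21 (SE 0.066). Cldn5, the tight junction protein of the blood-brain barrier, had 0.20 (SE 0.081). The endothelial count was 1 without EtOH rat 2 and 4 without water rat 4. Of 8 pericyte and smooth muscle genes 7 were positive with a median of 0.12, and Tagln and Myh11, both contractile proteins of smooth muscle, had 0.45 (SE 0.16) and 0.37 (SE 0.17). Myh11 was highest in EtOH rat 3 (213.6), with a log2 fold change of 0.19 without that rat and an exact permutation P of 0.183. The count at P under 0.05 in this list was 2 (25%), and 1 without EtOH rat 3.

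All 5 tested fibroblast and meninges genes were positive, with a median of 0.64 that became 0.17 without EtOH rat 3. Fmod, a collagen-binding proteoglycan, stood at 133.8 in that rat and at 52.0 to 68.6 in the other EtOH rats, against 22.2 to 48.8 in water rats. Fmod and Igfbp2 had means of 35.2 and 34.7 in water rats, so both passed the filter only through their EtOH levels. Cortical glutamatergic genes had 10 of 13 positive values and a median of 0.24, and 3 (23.1%) had P under 0.05. The median was 0.037 without EtOH rat 3, with 2 members at P under 0.05, and 0.43 without water rat 5, with 8. Etv1 and Lhx2, transcription factors of cortical neurons, were the higher genes, with 0.44 (SE 0.11) and 0.26 (SE 0.10). Cux2, a transcription factor of upper cortical layers, was lower with -0.70 (SE 0.15), against the sign of the median. It had 219.9 to 359.6 normalized counts in water rats and 128.0 to 187.8 in EtOH rats, and Etv1 had 355.7 to 492.1 and 500.6 to 686.2. Neither Cux2 nor Etv1 overlapped between groups. Both are also among the lowest-P genes that the paper reports from these libraries, so the share of this list is no independent support. Slc17a7, the vesicular glutamate transporter of cortical neurons, ran from 302.2 to 2251 in water rats and from 774.2 to 2128 in EtOH rats, so the groups overlapped over most of their range.

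**Figure D4:**
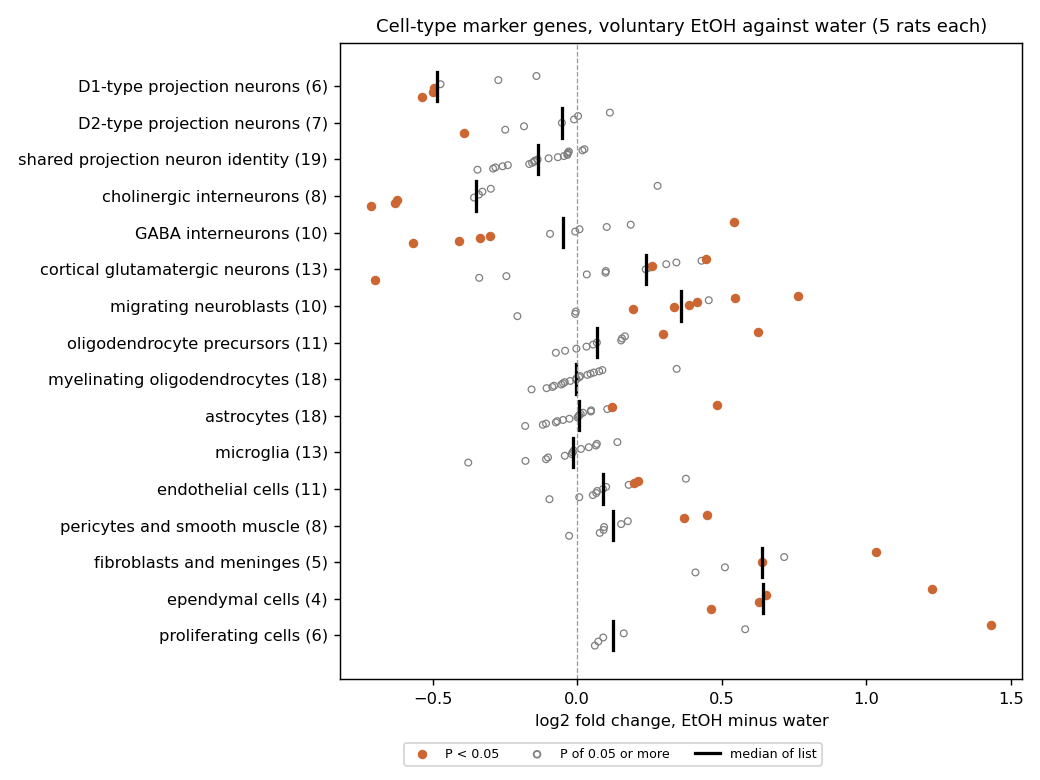
Log2 fold change (EtOH minus water) of each tested member of 16 cell-type lists, with the number of members in parentheses. Filled points had P under 0.05, open points did not, and bars are list medians. D1-type and cholinergic medians lay at -0.48 and -0.35, and neuroblast and ependymal medians at 0.36 and 0.64.

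Cytosolic ribosomal protein genes were higher in EtOH rats by small amounts. Of 41 tested members 37 had positive log2 fold changes, the median was 0.12, and 9 (22%) had P under 0.05, all higher. Their summed level was 3909, 3908, 3623, 3348 and 3813 CPM in water rats and 4119, 3919, 3919, 4250 and 4112 CPM in EtOH rats. All EtOH rats lay above all water rats, the nearest by 10 CPM. Leaving out 1 rat at a time gave medians of 0.093 to 0.15, with 5 members at P under 0.05 without EtOH rat 1 and 11 without water rat 2.

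Rpl7, a protein of the large subunit, had 549.8, 528.2, 476.3, 431.8 and 507.6 in water rats and 590.3, 533.2, 611.5, 612.7 and 591.0 in EtOH rats. Water rat 1 alone lay above EtOH rat 2, the lowest EtOH rat. The log2 fold change was 0.24 (SE 0.073). Rplp0, of the ribosomal stalk, had 0.21 (SE 0.069), Rpl23 0.23 (SE 0.077), Rps29 0.28 (SE 0.11), Rps4x 0.19 (SE 0.081) and Rpl19 0.18 (SE 0.077). The other 41 ribosomal genes fell below the filter, 14 of them with 0 reads in all rats. Many ribosomal genes have near-identical pseudogenes, and reads aligned to more than 1 place stand in a summary line outside the counts of genes. Their part in these low values was not tested. Rpl30 had 38.0 to 89.7 normalized counts in water rats but 0 in EtOH rats 2, 3 and 5, and its value is uncertain.

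Chaperones of the endoplasmic reticulum (ER) fold secreted and membrane proteins, and many are induced together through an ER stress element upstream of the gene. Of 21 tested heat shock and ER chaperone genes 19 were positive, with a median of 0.062, and 3 (14.3%) had P under 0.05, all higher. These 3 were Pdia6, a disulfide isomerase, Hsp90b1, the ER form of Hsp90, and Hspa5, the ER chaperone BiP. Without EtOH rat 2, or without EtOH rat 3, 1 member had P under 0.05. The element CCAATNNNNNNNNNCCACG was searched on both strands in RefSeq promoter windows of build GRCr8, from 250 bases before to 50 bases after each start. It was found in 22 of 33469 windows (0.0657%) and in 5 of the 23 list members with a window. Those 5 were Hspa5, Hsp90b1, Calr, Canx and Xbp1. Pdia6 had no window and was not searched. ER chaperones were searched because many are induced through this element, so its share among them is no independent result. The stretches before the start of Hspa5 (chr3:38452896-38453015, + strand) and Hsp90b1 (chr7:23012294-23012493, - strand) are shown because these genes had P under 0.05 and hold the element, whose fixed bases are in capitals.
Hspa5: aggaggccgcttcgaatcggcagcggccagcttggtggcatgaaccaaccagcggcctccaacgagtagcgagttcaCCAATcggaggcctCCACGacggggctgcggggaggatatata
Hsp90b1: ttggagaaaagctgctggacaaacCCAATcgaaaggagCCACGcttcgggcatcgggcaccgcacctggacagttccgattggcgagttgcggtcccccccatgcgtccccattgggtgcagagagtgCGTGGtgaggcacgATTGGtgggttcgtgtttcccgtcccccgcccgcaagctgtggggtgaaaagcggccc
The match lay at bases -43 to -25 in Hspa5, counted from the start. Hsp90b1 held 2 matches, at -176 to -158 and, on the opposite strand, at -72 to -54. A match is a description of the sequence only.

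Hspa5 had 1618, 1819, 2243, 1765 and 1774 normalized counts in water rats and 1839, 2194, 2352, 2140 and 1973 in EtOH rats. Water rat 3 was high for its group and the groups overlapped, with a log2 fold change of 0.19 (SE 0.086) and an exact permutation P of 0.103. Hsp90b1 had 2177, 2172, 2202, 2105 and 2142 in water rats and 2129, 2479, 2466, 2371 and 2364 in EtOH rats. Only EtOH rat 1 lay within the water range, and the log2 fold change was 0.13 (SE 0.053).

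The other genes with the element were named for it and not for their P. Calr and Canx, lectin chaperones, had log2 fold changes of 0.11 (SE 0.061) and 0.062 (SE 0.046), and Xbp1, a transcription factor of the ER stress response, had 0.097 (SE 0.11). Pdia6 ran from 540.5 to 616.9 in water rats and from 615.8 to 683.2 in EtOH rats. This gave a log2 fold change of 0.18 (SE 0.061). Hspa8 and Hsp90aa1, abundant cytosolic chaperones, had at most 1.3 and 1 normalized counts in these files and were not tested.

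Genes of neuronal excitability were lower more often than higher. Of 51 potassium channel genes 35 had negative values, the median was -0.041, and 5 (9.80%) had P under 0.05, all lower. Kcnab3, an auxiliary subunit, had 48.8 to 122.5 normalized counts in water rats and 33.9 to 65.0 in EtOH rats. This gave a log2 fold change of -0.85 (SE 0.23). Kcnt1, a sodium-activated channel, had 765.1 to 1058 and 726.7 to 821.8, a log2 fold change of -0.25 (SE 0.078). Without EtOH rat 2, 11 potassium channel genes had P under 0.05 and the median was -0.13, and 3 had P under 0.05 without water rat 2.

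Sodium channel subunits had a median of -0.12 over 10 genes, of which 8 were negative. Scn1a, a channel of fast-spiking neurons, had -0.30 (SE 0.099). Of 20 calcium channel subunits 14 were negative, and 1 (5%) had P under 0.05, against 4 without EtOH rat 2. Cacna1h, a T-type channel, had 968.0, 940.3, 834.4, 1105 and 808.8 in water rats and 769.8, 748.2, 728.5, 725.6 and 778.1 in EtOH rats. The groups did not overlap, and the log2 fold change was -0.31 (SE 0.078). Synaptic vesicle and exocytosis genes had 23 of 32 negative values and a median of -0.036. Vamp1 and Sv2a were among the lower genes, with -0.24 (SE 0.089) and -0.12 (SE 0.050), and Syt4 was higher, with 0.15 (SE 0.070).

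Transmitter receptor families showed few differences. Of 12 GABA-A subunits 1 had P under 0.05, and 4 without EtOH rat 2. With all rats this was Gabra5, the subunit of extrasynaptic receptors, with 0.35 (SE 0.12). NMDA subunits had a median of -0.054 over 6 genes with 0 at P under 0.05 in edgeR, and the gene with the lowest P was Grin2c with 0.11 (SE 0.086). Of 9 AMPA and kainate subunits, Grik5 had P under 0.05 with -0.15 (SE 0.056). Htr6, a serotonin receptor of striatal neurons, had -0.60 (SE 0.21) and Adra2c, an adrenergic receptor, had -0.41 (SE 0.15). Maob, which degrades monoamines, had 0.16 (SE 0.063). Endocannabinoid genes had a median of 0.006 over 6 genes and 0 at P under 0.05 in edgeR, with Cnr1, the CB1 receptor, at 0.093 (SE 0.12). The neuropeptide list held 14 tested genes, and Tac3 and Npy1r were lower with -0.38 (SE 0.16) and -0.36 (SE 0.16).

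Immediate early genes, which are induced by neuronal activity within minutes, had 20 of 22 positive values and a median of 0.15. The median was 0.017 without EtOH rat 2. Dusp6, a phosphatase that limits ERK signalling, had 0.42 (SE 0.14), and Nr4a2, an activity-induced nuclear receptor, had 0.69 (SE 0.26). Fos had 168.1, 181.9, 126.2, 77.4 and 81.4 in water rats and 251.0, 186.1, 102.8, 88.3 and 89.7 in EtOH rats. The spread within each group was larger than the difference between groups, and the log2 fold change was 0.17 (SE 0.30). Among clock genes, Dbp and Per3, outputs of the circadian oscillator, were lower with -0.25 (SE 0.082) and -0.19 (SE 0.089), and 2 of 15 (13.3%) had P under 0.05, with 4 without water rat 4 and 1 without EtOH rat 3. The time of day of each death was not in the labels and was not used here.

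Enzymes that oxidise EtOH and acetaldehyde showed no gene at P under 0.05 of 8 tested in edgeR, and their median was 0.015. Aldh2, the mitochondrial aldehyde dehydrogenase, had 416.9 to 530.3 normalized counts in water rats and 422.6 to 532.2 in EtOH rats. Acss1, which activates acetate, had 0.11 (SE 0.079). Adh1, Adh4 and Cyp2e1 fell below the filter. Oxidative phosphorylation subunits had a median of 0.018 over 70 genes with 1 (1.43%) at P under 0.05, proteasome subunits -0.004 over 33 genes with 0 in edgeR, and vacuolar ATPase subunits -0.033 over 18 genes with 0 in edgeR. Histone and DNA modifying enzymes had 1 of 52 (1.92%), Ehmt1, a histone methyltransferase, with -0.24 (SE 0.096). Genes of NF-kB, Toll-like and cytokine signalling had 0 of 7 and interferon-stimulated genes 0 of 6 in edgeR.

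In the extracellular matrix the families were split. Of 21 heparan sulfate genes 4 (19.0%) had P under 0.05, with 2 without EtOH rat 3 and 7 without EtOH rat 2. Sulf1 and Hs6st1, which edit the sulfation of heparan sulfate, and Gpc1, a glypican, were lower, with -0.81 (SE 0.21), -0.33 (SE 0.099) and -0.20 (SE 0.091), and Gpc5, another glypican, was higher with 0.23 (SE 0.091). Of 11 collagens, Col11a1 and Col18a1 were lower with -0.56 (SE 0.22) and -0.45 (SE 0.18), and exact permutation P of 0.103 and 0.111. Col1a1 was higher with 0.64 (SE 0.28), and its 167.5 in EtOH rat 3 stood above 53.4 to 80.8 in the other EtOH rats. Without water rat 1, Col11a1 and Col18a1 had -0.36 and -0.30, and 0 collagens had P under 0.05 in edgeR.

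**Figure D5:**
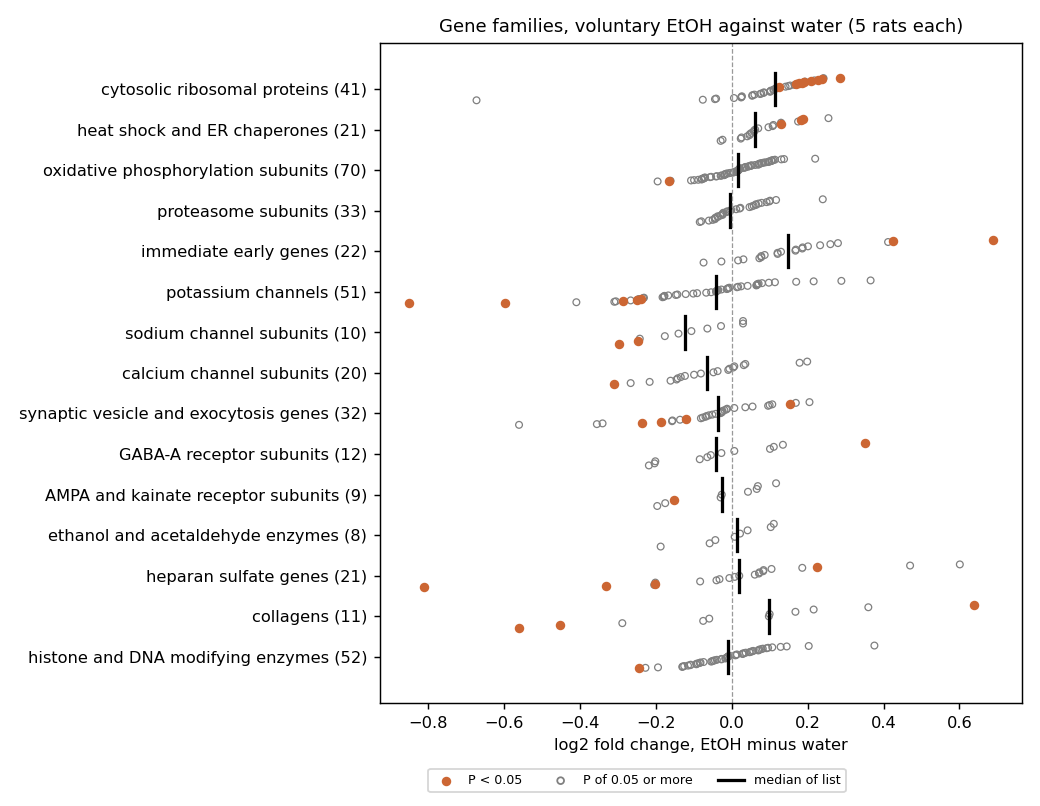
Log2 fold change (EtOH minus water) of each tested member of 15 gene families, with the number of members in parentheses. Filled points had P under 0.05, open points did not, and bars are family medians. The ribosomal median lay at 0.12 and the sodium channel median at -0.12, and the proteasome median at -0.004.

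The precision differed between programmes. The biological coefficient of variation (BCV), the relative spread between rats of one group, had a median of 9.96% over all genes tested. It was 7.85% for proteasome subunits, 8.43% for ribosomal proteins and 9.12% for astrocyte genes. It was 19.1% for D1-type, 26.6% for cholinergic, 27.5% for ependymal, 28.6% for fibroblast and 29.5% for cortical glutamatergic genes, and 24.2% for immediate early genes. The neuroblast list, at 13.4%, lay between. The median SE of a log2 fold change was 0.105 over all genes.

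In experiment 2, rats given EtOH by gavage were compared with rats given water by gavage, 6 in each group, all of which also drank EtOH, so both groups were exposed. The libraries were strand-specific and were fitted separately. The list medians, side by side for experiments 1 and 2, were -0.48 and -0.026 for D1-type genes, 0.36 and -0.049 for neuroblast genes and 0.64 and -0.20 for ependymal genes. They were 0.12 and -0.20 for ribosomal genes, -0.35 and -0.14 for cholinergic genes and 0.062 and 0.030 for chaperones. Each experiment had its own filter, so the medians cover partly different members. Tested were 4 and 3 ependymal, 41 and 48 ribosomal and 8 and 7 cholinergic genes, and Isl1 was tested only in experiment 1. The median over all genes tested in experiment 2 was 0.001, and 115 genes (1.33%) had P under 0.05 in edgeR. The common BCV, 1 value for all genes, was 31.3% in experiment 2 against 11.1% in experiment 1. Values of experiment 2 were thus less precise. Drd1 had a log2 fold change of 0.060 (SE 0.18) in experiment 2, Dcx 0.50 (SE 0.27), Top2a -0.14 (SE 0.54) and Cacna1h -0.74 (SE 0.39). The differences between experiments were not tested.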

How the data were processed

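RNA from the NAc of 10 rats (5 EtOH, 5 water) was analysed. Per the paper's methods and the submitters' processing notes, the authors aligned reads to rn6 (Rnor_6.0) with TopHat2 2.0.13, counted them per gene with HTSeq and deposited raw read counts without normalization. Tool notes list HTSeq 0.5.3p3 and 0.6.0, and the counting options were not given in the sources used here. Reads outside genes or aligned to several places stood in 5 lines that name no gene, which held 76.0% to 78.3% of all counted alignments and were left out. Counts did not keep the strand, so overlapping and antisense genes cannot be separated.

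Groups came from the labels. Of all listed genes, the upper 8655 by base mean (above 43.6) were fitted in edgeR 4.0.16 (R 4.3.3) with TMM and the quasi-likelihood test, and P-values were adjusted by Benjamini-Hochberg. Each SE was derived from the F statistic. Single genes were also tested by two-sided exact permutation of the mean log2(CPM + 0.5). P-values set the group difference against the spread between these rats only. No 2 libraries agreed within sampling noise (lowest chi-square per degree of freedom 2.99). The fits were tested on simulated counts.

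The comparison, gene lists and named genes were chosen with earlier results of these data known. Named by rule were the lowest-P gene of each list, up to 6 members at P under 0.05 in lists with at least 2 such members and at least 2 times the background share, the most abundant cell-type marker, and the 12 lowest-P genes in no list. Added after values were seen were Tac1, Isl1, Drd2, Ppp1r1b, Adora2a, Gad1, Mki67, Fos, Nr4a2, Aldh2, Kcnt1, Igf2, Igfbp2, Tnc, Rpl30, Calr, Canx and Xbp1, and the genes named only by level or as below the filter. The alternatives were DESeq2 1.42.0, its size factors, no filter, filterByExpr, the newer mode of glmQLFit, the replicate number as a block, and each rat left out. The same number in both groups did not pair the rats. Some items are not reported here.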

Additional observations from a re-analysis of the deposited data

Results flagged for a closer look

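Values were flagged where 1 rat stood apart from the 4 others of its group by Dixon's criterion. Of 412 groups scanned (named genes and list sums), 32 were flagged, against about 20.6 given by chance. EtOH rat 3 gave 10 of these and EtOH rat 2 gave 9. EtOH rat 3 was highest of the EtOH rats in Cp (167.5 normalized counts), Camk1 (326.1), Fmod (133.8), Col1a1 (167.5), Ptgds (1428), Slc17a7 (2128), Igf2 (475.0 against 138.6 to 205.4) and Igfbp2 (150.7 against 17.4 to 40.3), and in the summed CPM of cortical glutamatergic (1508) and fibroblast and meninges (703.1) genes. EtOH rat 2 was lowest in Cux2 (128.0) and Rpl7 (533.2). It was highest in Ppp1r1b (5646), Adra2c (176.1), Penk (4024) and Arpp21 (6961), and in the summed CPM of D2-type projection neuron (1930), metabotropic glutamate receptor (722.3) and sodium channel (2749) genes. In water rat 5, Itgam (127.3), Atp6v0e1 (86.6) and Ptgds (934.6) were highest, fibroblast and meninges genes summed to the highest 360.3 CPM, and GABA-B, synthesis and transport genes to the lowest 4254 CPM. Water rat 1 was highest in Psmd5 (204.5) and lowest in Rela (114.6), and water rat 4 was lowest in Canx (3784). In EtOH rat 1, Maob (682.6) was lowest and Itgam (98.8) highest. EtOH rat 4 was lowest in Pdia6 (615.8), and EtOH rat 5 was lowest in Lipa (216.9) and highest in the summed oligodendrocyte precursor genes (1858 CPM). The cause of each was not tested.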

How the results depend on the processing

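The count at an FDR under 0.05 was 0 in every alternative run, with a lowest FDR between 0.074 (DESeq2) and 0.993 (without water rat 4). At an FDR under 0.1, DESeq2 called 13 genes and edgeR without water rat 5 called 16. Without the filter on low counts, 472 genes were higher and 348 lower at P under 0.05, of 14024 tested. With 1 rat left out, 202 to 397 genes were higher and 174 to 342 lower, with both highest counts without water rat 5. With the replicate block, 266 were higher and 210 lower, and the lowest FDR was 0.128. The numbers did not pair the rats: the correlations of same-numbered rats ran from -0.125 to 0.144, and 1 rat correlated best with its own number. Of 142 genes followed, 11 changed sign in some alternative, and 0 of these had P under 0.05 in edgeR with all rats. With 1 rat left out, the log2 fold change ran from -0.138 to 0.821 for Ptgds, -0.235 to 0.024 for Mbp, -0.076 to 0.815 for Slc17a7, -0.214 to 0.025 for Arpp21, -0.053 to 0.02 for Ctss, -0.04 to 0.068 for Glul, -0.059 to 0.033 for Tubb3, -0.036 to 0.049 for Aldh2, -0.11 to 0.336 for Fos, -0.189 to 0.097 for Drd2 and -0.121 to 0.006 for Gad1. Drd2 was also at -0.001 with DESeq2 and without the filter, at -0.003 with DESeq2 size factors and at -0.03 with the replicate block. With no filter, the proliferation median was 0.577, since 13 more members entered. Low counts limit the ependymal, proliferation and fibroblast lists, of which 7, 13 and 8 members lay below the filter.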

Other observations

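The 12 genes with the lowest P among those in no list are given here by their values. Vim, the intermediate filament vimentin, had 157.6, 308.3, 250.2, 238.9 and 371.5 normalized counts in water rats and 283.5, 501.1, 644.3, 465.9 and 459.3 in EtOH rats, with a log2 fold change of 0.82 (SE 0.20) and an exact permutation P of 0.0238. EtOH rat 1 lay within the water range. Fabp7, a fatty acid binding protein of radial glia and astrocytes, had 391.7 to 507.6 in water rats and 513.2 to 569.9 in EtOH rats, without overlap. Tnc, the matrix protein tenascin C of neurogenic zones, was chosen after its values were seen. It had 64.2 to 122.8 in water rats and 123.2 to 252.6 in EtOH rats, with the highest value in EtOH rat 3. Zfhx4, a transcription factor, had 0.42 (SE 0.11), and Tpm4, an actin-binding tropomyosin, had 0.46 (SE 0.11).

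Other genes of this group were St18, a zinc finger factor, with 0.79 (SE 0.21), Rftn1, a lipid raft protein, with 0.78 (SE 0.20), Fkbp9, an ER prolyl isomerase, with 0.49 (SE 0.12), and Vof16 with 0.44 (SE 0.11). Rftn1 had a mean of 35.9 in water rats, so it passed the filter only through its EtOH level. Lower were Mfsd12, a lysosomal transporter, with -0.58 (SE 0.14), Kif26a, a kinesin-family protein, with -0.40 (SE 0.11), Fcho1, an endocytic protein, with -0.30 (SE 0.079), and Camk1, a calmodulin-dependent kinase, with -0.26 (SE 0.072). Kif26a had 108.7 to 132.5 in water rats and 78.6 to 100.1 in EtOH rats, without overlap. Their FDR lay at 0.536 or above in edgeR, as for every gene tested.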
